A study of Homo sapiens with 6 samples.

Results

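The 10 genes examined here belong to insulin and insulin-like growth factor (IGF) signaling and were taken from the gene names of the count table: the receptors INSR, IGF1R and IGF2R, the adaptors IRS1 and IRS2, and the secreted binding proteins IGFBP1, IGFBP2, IGFBP3, IGFBP4 and IGFBP6. Of these 10 genes 9 have a row among the 14034 rows of the table, and IGFBP2 was not analysed here. All libraries came from JHH-4, an established human hepatocellular carcinoma line kept in medium with fetal bovine serum, and were labelled as wild type (Control, 3 libraries) or as overexpressing hsa-miR-885-5p (3 libraries) from a plasmid that carries the primary microRNA. The submitters describe the 3 libraries of each group as technical replicates, so p-values measure only the spread between such replicates of 1 cell line. The labels do not say what the control cells received or which promoter drives the plasmid, so an effect of the plasmid and one of the microRNA cannot be told apart. Nor can one of hsa-miR-885-3p, the other mature microRNA from the same stretch of chromosome 3. Its seed differs, and sites for it were not searched.

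Insulin and the IGFs act through receptor tyrosine kinases. The insulin receptor (INSR) and the IGF1 receptor (IGF1R) phosphorylate IRS1 and IRS2, which recruit PI3K and so activate AKT, mTOR complex 1 and the exclusion of FOXO transcription factors from the nucleus. IGF2R, the cation-independent mannose 6-phosphate receptor, clears IGF2 from the cell surface and carries lysosomal enzymes, and the IGFBPs bind IGFs outside the cell. The liver is the main source of circulating IGF1, and IGFBP1 is a hepatocyte product that insulin represses.

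Total counts per library ran from 46382314 to 56409821. Of 13 liver and hepatoma markers 5 were in the table. Keratin genes KRT8 and KRT18 were abundant, at 1725 and 573 CPM in control cells, SERPINA1 was at 8.86 CPM, and ALB, AFP and HNF4A were not analysed here. The fibrinogen gene FGB fell with miR-885-5p (log2 fold change -2.20). The summed level of the 5 markers was 2311 to 2396 CPM in control and 1939 to 2013 CPM in miR-885-5p libraries, and its part in the results below was not tested. Of the markers of other cells, 1 of 5 leukocyte genes (1.05 to 1.59 CPM in control, 0.615 to 1.11 CPM with miR-885-5p), 2 of 4 endothelial genes (1.42 to 2.08 and 2.50 to 2.78 CPM in sum) and 3 of 6 fibroblast and stellate genes were in the table. The last list summed to 13.8 to 15.8 CPM in control and 24.8 to 25.2 CPM with miR-885-5p, mostly through PDGFRB (log2 fold change 1.03).

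The sequences that bear on a direct action of the microRNA are its seed and the matching stretches of the members' mature messages. The mature miR-885-5p, from RefSeq on GRCh38.p14 (chr3:10394531-10394552, minus strand), is shown with its seed, bases 2 to 8, in capitals.
hsa-miR-885-5p: uCCAUUACacuacccugccucu
A seed match was searched on the sense strand of the longest 3′ UTR that GENCODE 29 (GRCh38) annotates for each gene, as the 8mer GTAATGGA, the 7mer-m8 GTAATGG, which the 8mer contains, or the 7mer-A1 TAATGGA, which the 8mer also contains. Of 12308 genes with such a UTR, 8.01% held an 8mer or 7mer-m8 and 2.53% an 8mer. Of the 9 members 4 held one: IGF1R an 8mer, and IRS1, IGFBP3 and IGFBP4 a 7mer-m8 each. They are printed with 11 bases on either side and the site in capitals.
IGF1R, 8mer, chr15:98958849-98958856, plus strand: ctcttttcccgGTAATGGAtacttctatca
IRS1, 7mer-m8, chr2:226731559-226731565, minus strand: tatgtatatatGTAATGGgtgccaggcca
IGFBP3, 7mer-m8, chr7:45913036-45913042, minus strand: aggcatcacaaGTAATGGcacaattcttc
IGFBP4, 7mer-m8, chr17:40457169-40457175, plus strand: tagcagatggaGTAATGGtcacgaggtcc

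These sites lie in UTRs of very different length. Counted from the first UTR base, the IGF1R site begins at 1407 of 7088, that of IRS1 at base 4707 of 4955, that of IGFBP3 at base 808 of 1605 and that of IGFBP4 at base 586 of 1148. Among all genes, 25.7% of those with a UTR of 4000 bases or more held an 8mer or 7mer-m8, against 5.37% of those from 1000 bases to just under 2000. IGF1R, IRS1, IGF2R (6420 bases) and INSR (4801 bases) fall in the long class, where the first 2 of these 4 held a site. IGFBP3 and IGFBP4 fall in the shorter class and both held one. IRS2 (3606 bases), IGFBP1 (577 bases) and IGFBP6 (178 bases) held neither type. IGF1R and IGFBP4 also held a 7mer-A1, as did IGFBP1, the only such site among the 5 members without an 8mer or 7mer-m8; of all genes 17.2% held at least 1 site of any of the 3 types.

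The comparison asked which messages differ when miR-885-5p is raised. Of the 9 members 4 rose (INSR, IGF2R, IRS2 and IGFBP3), 2 fell (IRS1 and IGFBP4), and IGF1R, IGFBP1 and IGFBP6 did not pass the threshold of 0.05 on the adjusted p (edgeR quasi-likelihood test, Benjamini-Hochberg over 14034 genes). Among all genes 52.9% passed it, 26.3% higher and 26.5% lower, so that 6 of 9 is close to the share in the whole table. The even split depends on the scaling: total-count scaling gave 4357 genes higher and 3134 lower (58.2% of calls higher), and limma on the deposited FPKM 3777 and 2679 (58.5%). The median log2 fold change of the 9 was 0.20, against -0.0006 over all genes, and the median size without sign was 0.23 against 0.24. The groups did not overlap in CPM for the same 6 members, and for 60.5% of all genes.

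**Figure D1:**
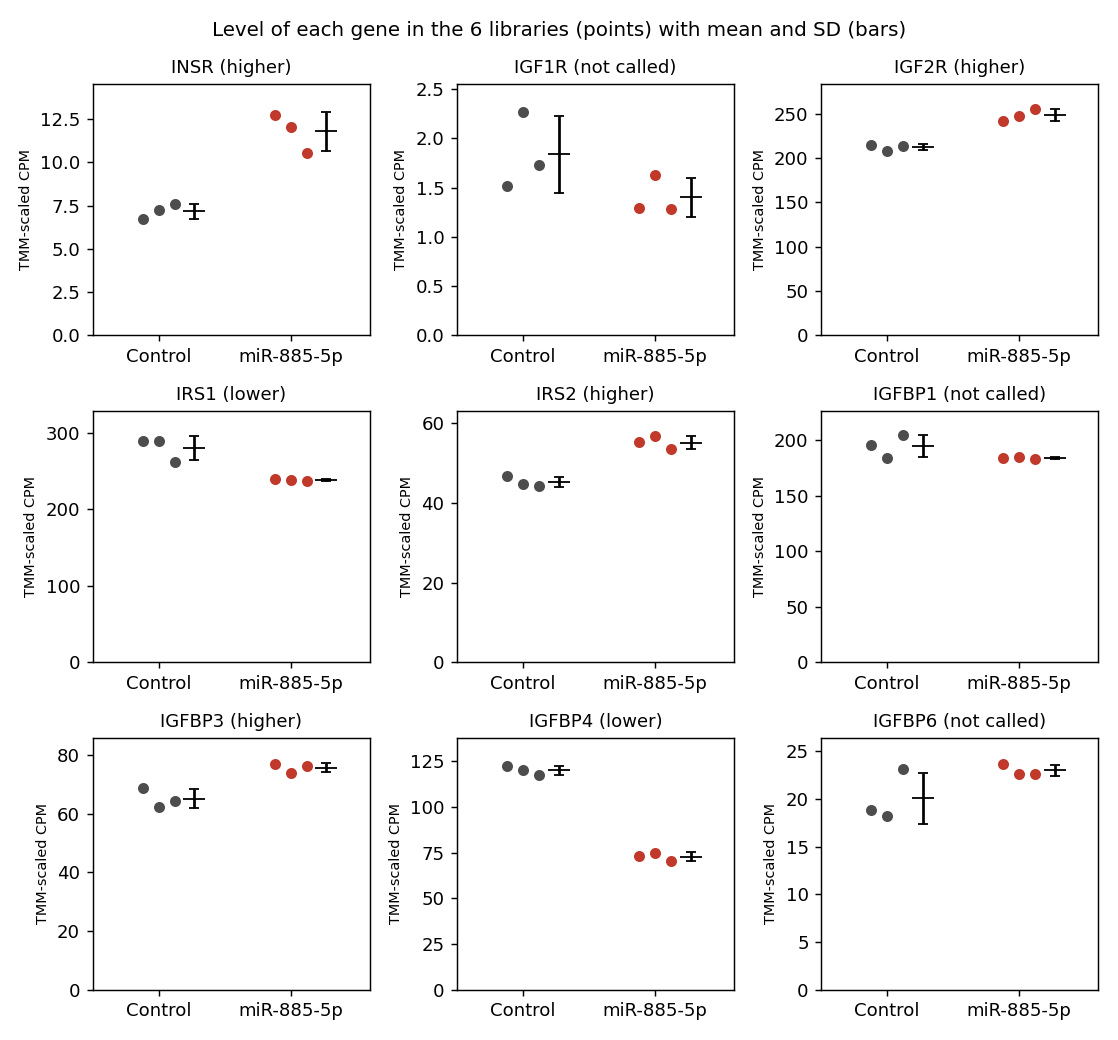
Level of each of the 9 genes in TMM-scaled CPM (vertical axes, each from 0), with 1 point per library and the mean with SD of the 3 libraries beside them. INSR, IGF2R, IRS2 and IGFBP3 sit higher and IRS1 and IGFBP4 lower in all 3 miR-885-5p libraries, while the groups overlap for IGF1R, IGFBP1 and IGFBP6.

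Of the 3 receptors, INSR and IGF2R rose and IGF1R did not pass the threshold. Levels are CPM, counts scaled to library size with edgeR's TMM factors. INSR (ENSG00000171105, chr19:7112255-7294034, minus strand, GRCh38) was at 6.70, 7.23 and 7.59 CPM in control libraries 1 to 3 and at 12.8, 12.1 and 10.6 CPM in miR-885-5p libraries 1 to 3. All 3 miR-885-5p libraries lay above all control libraries. The mean went from 7.18 ± 0.447 to 11.8 ± 1.13 CPM (SD, n = 3 per group), a log2 fold change of 0.72 (SE 0.10, edgeR adjusted p = 2.48e-04). This 1.64-fold rise was the largest among the members. The INSR 3′ UTR is one of those with no seed match of any of the 3 types.

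IGF1R (ENSG00000140443, chr15:98648539-98964530, plus strand), the receptor whose UTR holds the 8mer shown above, was hardly detected. Its counts were 72, 107 and 85 in control and 61, 94 and 67 in miR-885-5p libraries, or 1.51, 2.27 and 1.73 against 1.29, 1.63 and 1.28 CPM. The groups overlapped, because miR-885-5p library 2 lay above control library 1. Its log2 fold change was -0.39 (SE 0.23, edgeR adjusted p = 0.184), with a 95% interval from -0.90 to 0.13. Depth limits this gene: the interval holds both no difference and a larger fall than that of IGFBP4.

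IGF2R (ENSG00000197081, chr6:159969099-160113507, plus strand) was at 215, 209 and 213 CPM in control and at 242, 247 and 256 CPM in miR-885-5p libraries. The 2 groups were apart and tight, with means of 212 ± 3.25 and 249 ± 6.85 CPM (n = 3 per group). The rise was small, with a log2 fold change of 0.23 (SE 0.04, edgeR adjusted p = 5.39e-04). In the deposited FPKM values IGF2R was at 18.6, 16.2 and 15.95 in control and at 22.6, 22.9 and 21.6 with miR-885-5p. These do not move in proportion to its counts between libraries, and how the authors computed FPKM is not stated in the labels. The means were 16.9 ± 1.46 and 22.4 ± 0.692 FPKM, a difference of 0.40 on the log2(FPKM + 0.1) scale (limma adjusted p = 0.00238), more than 1.5 times the value from counts.

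The receptor balance within each library does not depend on the scaling between libraries. The ratio of IGF1R to INSR counts was 0.226, 0.314 and 0.227 in control and 0.101, 0.135 and 0.121 in miR-885-5p libraries. All 3 ratios with miR-885-5p were below all 3 control ratios, by 1.09 on average on the log2 scale (exact permutation test, two-sided, p = 0.1). The ratio of IGF2R to IGF1R counts was 142, 91.9 and 124 in control and 187, 152 and 200 with miR-885-5p, higher by 0.60 on the log2 scale (exact permutation p = 0.1). With 3 libraries against 3, 0.1 is the smallest p this test can give, and it was also the adjusted p over the 4 ratios computed. Both ratios share the sparse IGF1R counts.

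The adaptors moved in opposite directions. IRS1 (ENSG00000169047, chr2:226731317-226799759, minus strand), the more abundant adaptor, was at 289, 290 and 262 CPM in control and at 240, 238 and 238 CPM in miR-885-5p libraries. Control library 3 was the lowest control, yet above every miR-885-5p library. The IRS1 mean fell from 281 ± 15.7 CPM in control to 239 ± 1.18 CPM (n = 3 libraries each), with a log2 fold change of -0.23 (SE 0.04, edgeR adjusted p = 0.00154).

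IRS2 (ENSG00000185950, chr13:109752698-109786568, minus strand), which FOXO factors are known to induce, was at 46.7, 44.6 and 44.2 CPM in control and at 55.1, 56.5 and 53.3 CPM with miR-885-5p. Its mean rose from 45.2 ± 1.34 CPM in control to 54.96 ± 1.62 CPM, a log2 fold change of 0.28 (SE 0.05, edgeR adjusted p = 8.52e-04). An antisense gene overlaps 115 exonic bases of IRS2 and was not analysed here. No label says whether the counting used strand, so reads from that stretch cannot be told apart. The ratio of IRS1 to IRS2 counts was 6.19, 6.49 and 5.94 in control and 4.36, 4.22 and 4.46 with miR-885-5p. That ratio was lower in each miR-885-5p library than in any control library, by 0.51 on the log2 scale (exact permutation p = 0.1).

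**Figure D2:**
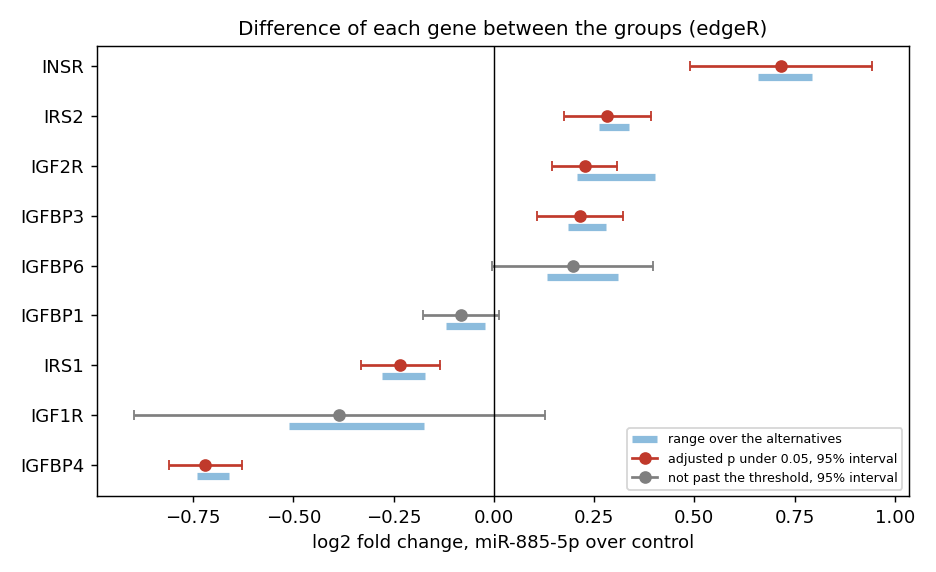
Log2 fold change of miR-885-5p over control (horizontal axis) for each gene, with points for the edgeR estimate, whiskers for its 95% interval and blue bars for the range over the alternative settings. IGFBP4 at -0.72 and INSR at 0.72 lie farthest from 0, and the widest interval is that of IGF1R, from -0.90 to 0.13.

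Of the 4 binding proteins measured, IGFBP4 fell, IGFBP3 rose, and IGFBP1 and IGFBP6 did not pass the threshold. IGFBP4 (ENSG00000141753, chr17:40443461-40457731, plus strand), a binding protein that mostly inhibits IGF action until the protease PAPPA cleaves it, was at 122, 120 and 117 CPM in control and at 73.3, 74.8 and 70.4 CPM with miR-885-5p. The spread within each group was small beside the gap between them. IGFBP4 fell from 120 ± 2.66 to 72.8 ± 2.26 CPM (n = 3 per group), a log2 fold change of -0.72 (SE 0.04, edgeR adjusted p = 7.64e-07), which leaves 0.607 of the control level. Against a change of 1.5-fold it was the single member called (edgeR glmTreat, adjusted p = 0.0160), a call that 2.92% of all genes had in the downward direction.

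IGFBP3 (ENSG00000146674, chr7:45912245-45921874, minus strand), the main IGF carrier in blood, was at 68.7, 62.4 and 64.4 CPM in control and at 77.0, 73.9 and 76.2 CPM in miR-885-5p libraries. Its mean rose from 65.2 ± 3.21 CPM in control to 75.7 ± 1.6 CPM, a log2 fold change of 0.22 (SE 0.05, edgeR adjusted p = 0.00383). Its UTR holds one of the 7mer-m8 sites shown above. IGFBP1 (ENSG00000146678, chr7:45888357-45893668, plus strand) is its neighbour on chromosome 7, with 18576 bases and 0 annotated genes between them. IGFBP1 was at 195, 184 and 204 CPM in control and at 184, 185 and 183 CPM with miR-885-5p, with overlapping groups and a log2 fold change of -0.08 (SE 0.04, edgeR adjusted p = 0.129). Without control library 2, its lowest control value, the same test gave -0.12 and an adjusted p of 0.0250. The ratio of IGFBP1 to IGFBP3 counts was 2.85, 2.95 and 3.17 in control and 2.39, 2.50 and 2.40 with miR-885-5p, lower by 0.30 on the log2 scale with groups apart (exact permutation p = 0.1).

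IGFBP6 (ENSG00000167779, chr12:53097436-53102345, plus strand), which prefers IGF2, was at 18.8, 18.3 and 23.1 CPM in control and at 23.7, 22.7 and 22.7 CPM with miR-885-5p. Control library 3 lay among the miR-885-5p libraries. Its log2 fold change was 0.20 (SE 0.09, edgeR adjusted p = 0.0930), and without control library 3 it was 0.31 (adjusted p = 0.00328). In the deposited FPKM values the log2 difference was 0.28 (limma adjusted p = 0.0459). The authors' deposited table gives an unadjusted p of 0.0431 for IGFBP6, and DESeq2 run on the counts gave an adjusted p of 0.0762, which is no call.

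Levels of different genes were compared in the deposited FPKM, a unit that accounts for transcript length, with the limit given for IGF2R. In control cells the order was IGFBP1 (106 ± 6.82 FPKM, n = 3), IGFBP4 (49.1 ± 0.867), IRS1 (26 ± 1.17), IGFBP3 (25.98 ± 1.55), IGF2R (16.9 ± 1.46), IGFBP6 (15.7 ± 2.33), IRS2 (4.99 ± 0.149), INSR (0.813 ± 0.0712) and IGF1R (0.134 ± 0.0261). The library ranges overlapped between IRS1 and IGFBP3 and between IGF2R and IGFBP6, and for no other neighbours in that order. With miR-885-5p IGFBP3 (31.5 ± 0.326 FPKM) stood next to IGFBP4 (31.05 ± 1.34) with overlapping ranges, and IRS1 (23.1 ± 0.316) next to IGF2R (22.4 ± 0.692), likewise overlapping. IGFBP1 kept the first place, and IGF2R, IGFBP6, IRS2, INSR and IGF1R kept the last 5 in the same order. Both signaling receptors were weak: INSR ranked at the 13.8th and IGF1R at the 0.185th percentile of all rows by mean FPKM, against the 78.7th for IRS1 and the 74.0th for IGF2R.

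**Figure D3:**
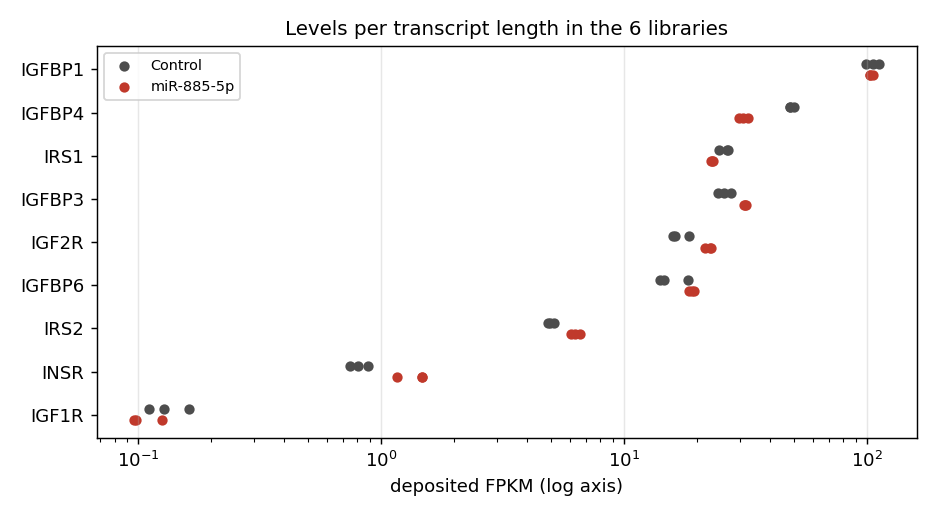
Deposited FPKM (log axis) of each gene, with 1 point per library, in the order of the control means. IGFBP1 is near 106 and IGF1R near 0.134 FPKM in control cells, and the points of IGFBP4 lie lower and those of IGFBP3 higher with miR-885-5p.

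The make-up of the 4 binding-protein messages measured among the members differed, while the summed level of these 4 overlapped between the groups. The 4 genes summed to 197 ± 9.82 FPKM in control and 186 ± 3.70 FPKM with miR-885-5p (n = 3 per group). IGFBP4 made up 25.2, 26.1 and 23.6% of that sum in control libraries and 16.7, 17.1 and 16.3% in miR-885-5p libraries. IGFBP3 made up 13.9, 13.1 and 12.6% in control and 17.0, 16.7 and 17.1% with miR-885-5p. IGFBP1 took 53.9 ± 0.833% and 56.1 ± 0.351%, and IGFBP6 took 7.97 ± 0.848% and 10.2 ± 0.252%. These shares and the sum describe transcripts of 4 genes only, with IGFBP2, IGFBP5 and IGFBP7 left out. IGFBP7 was at 57.4, 58.6 and 63.3 FPKM in control and at 105, 111 and 94.8 FPKM with miR-885-5p. The overlap of the sum therefore does not extend to a sum that includes IGFBP7.

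**Figure D4:**
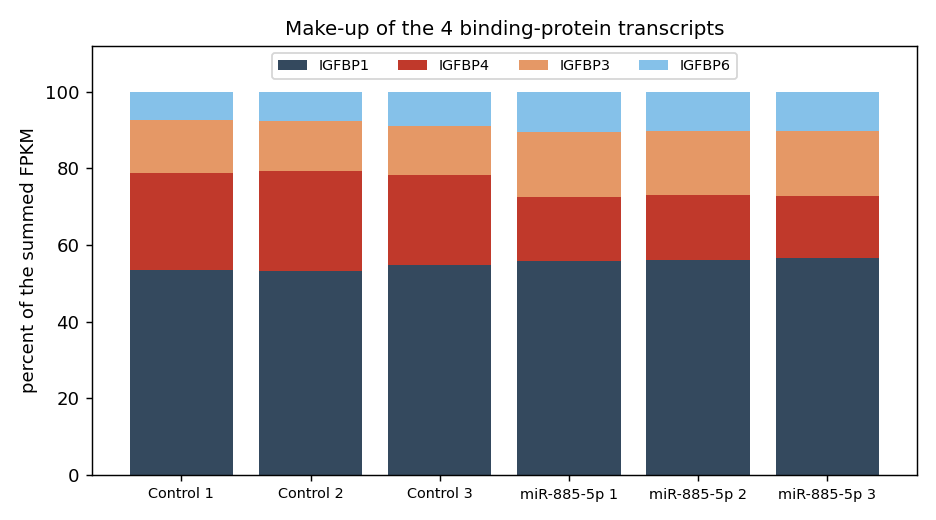
Percent of the summed FPKM of IGFBP1, IGFBP4, IGFBP3 and IGFBP6 (vertical axis, from 0) in each of the 6 libraries. The IGFBP4 part covers 23.6 to 26.1% of each control bar and 16.3 to 17.1% of each miR-885-5p bar.

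Of the 4 members with an 8mer or 7mer-m8, IRS1 and IGFBP4 fell, IGFBP3 rose and IGF1R was not called. Of the 5 without, INSR, IGF2R and IRS2 rose, and neither IGFBP1 nor IGFBP6 was called. Among all 986 genes with such a site 35.5% fell and 24.7% rose, and among 11322 genes without one 27.2% fell and 27.9% rose. With 9 members these counts are a description, and no test of site against direction was made.

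The rest of the pathway was read from 5 lists with 86 genes, of which 71 were tested. Of these 71 genes 29 rose, 19 fell and 23 did not pass the threshold, or 67.6% called against 52.9% of all genes. Of all genes 26.3% rose and 26.5% fell. By list, in the order below, 90, 60, 66.7, 76.9 and 53.85% of the tested genes were called. The median log2 fold change of the 71 genes was 0.08. The ligand genes INS, IGF1 and IGF2 were not analysed here.

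The list of IGF ligands and availability had 7 of 10 tested genes higher and 2 lower (median log2 fold change 0.61). It mixes genes that set how much IGF is available with the RNA-binding protein genes IGF2BP1, IGF2BP2 and IGF2BP3. Among the latter, IGF2BP1 counted as higher, IGF2BP2 as lower, and IGF2BP3 was not called. IGFBP5, another secreted IGF-binding protein, had 18, 7 and 20 counts in control and 148, 170 and 179 counts with miR-885-5p. Its mean went up from 0.311 ± 0.141 CPM to 3.17 ± 0.237 CPM, a log2 fold change of 3.34 (SE 0.31, edgeR adjusted p = 1.75e-05), with no overlap at a low level. On the log2(FPKM + 0.1) scale, where the pseudocount exceeds every control value of IGFBP5, the difference was 2.01 (limma adjusted p = 2.17e-04). The protease gene HTRA1, whose product can cleave IGFBPs, rose from 21.7 ± 1.74 to 46.9 ± 3.02 CPM (1.11 on the log2 scale), and IGFBP7, a secreted protein related to the IGFBPs, from 94.5 ± 4.12 to 157 ± 10.5 CPM (0.73). PAPPA, the protease that cleaves IGFBP4, was chosen after its values were seen. It was at 22.8, 29.03 and 24.5 CPM in control and at 35.7, 33.8 and 37.6 CPM with miR-885-5p, a rise of 0.49 on the log2 scale (SE 0.09, edgeR adjusted p = 0.00110). The stanniocalcins, which inhibit PAPPA, went opposite ways. STC1, also chosen after its values were seen, rose from 62.4 ± 4.16 to 70.7 ± 1.66 CPM (log2 fold change 0.18, edgeR adjusted p = 0.0185). STC2, the less abundant in CPM, fell by 0.24 on the log2 scale (edgeR adjusted p = 0.00952; 0.0852 with limma on the deposited FPKM), and IGF2BP2, an RNA-binding protein known for binding IGF2 messages, had a log2 fold change of -0.16 (adjusted p = 0.0416). The call of IGF2BP2 was lost in 10 of 17 alternatives, with adjusted p up to 0.143 apart from the test against 1.5-fold. Of the 3 fibroblast and stellate markers tested, PDGFRB rose in the same libraries, LRAT (edgeR adjusted p = 0.0746) and COL1A1 (0.600, with overlapping groups) did not pass the threshold, and the part of these markers was not tested.

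Among 20 receptor adaptors and regulators 7 rose and 5 fell (median 0.09). FURIN, the convertase that cleaves the proreceptors of INSR and IGF1R, rose from 23.4 ± 1.42 CPM in control to 63.4 ± 1.40 CPM, a log2 fold change of 1.44 (SE 0.06, edgeR adjusted p = 1.12e-07). SHC1, an adaptor toward RAS, rose by 0.51 and GRB10, which binds and restrains both receptors, by 0.22 on the log2 scale. SOCS3, an inhibitor of cytokine and insulin signaling, changed by -0.46, the adaptor gene GRB2 by -0.30 and PTPN1, the phosphatase PTP1B that acts on the insulin receptor, by -0.23, each past the threshold.

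PI3K and AKT genes numbered 6 higher and 4 lower of 15 (median -0.0023). PIK3CB, a catalytic subunit of PI3K, fell from 50.3 ± 0.844 CPM in control to 28.0 ± 0.549 CPM, a log2 fold change of -0.84 (SE 0.05, edgeR adjusted p = 9.17e-07). PHLPP2, a phosphatase of AKT, changed by -0.80 and INPP4B, a phosphoinositide phosphatase, by -0.25. The regulatory subunit gene PIK3R1 rose by 0.75 on the log2 scale and INPPL1, the phosphatase SHIP2, by 0.32. Both directions thus held subunits of the kinase and phosphatases that oppose it. The INPP4B call was lost in the deposited FPKM values (log2 difference -0.09, limma adjusted p = 0.705).

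Of 13 genes of the mTOR complexes and their substrates 4 rose and 6 fell (median -0.10). The substrates EIF4EBP1 and EIF4EBP2, which hold back cap-dependent translation, went opposite ways: EIF4EBP1 fell from 184 ± 14.7 to 120 ± 4.88 CPM (-0.61 on the log2 scale) and EIF4EBP2 rose from 109 ± 4.56 to 150 ± 2.15 CPM (0.46). The kinase gene RPS6KB1 changed by -0.40 and RPTOR, which defines mTOR complex 1, by -0.31, while TSC2, its upstream inhibitor, rose by 0.50. MAPKAP1, a subunit of mTOR complex 2, rose by 0.13, a call that ended when control library 1 (edgeR adjusted p = 0.0580) or library 2 with miR-885-5p (0.0585) was left out.

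FOXO factors and genes known to respond to insulin had 5 of 13 tested members higher and 2 lower (median 0.004). TXNIP, an inhibitor of glucose uptake, rose from 5.15 ± 0.453 to 9.03 ± 0.885 CPM (0.81 on the log2 scale), the coactivator gene PPARGC1A by 0.51 and the kinase gene GSK3B by 0.26. The glucose transporter gene SLC2A1 changed by -0.22 and TBC1D4, an AKT substrate in glucose transport, by -0.23 (edgeR adjusted p = 0.00440; 0.0521 with limma on the deposited FPKM). FOXO1, PCK1 and G6PC were not analysed here.

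**Figure D5:**
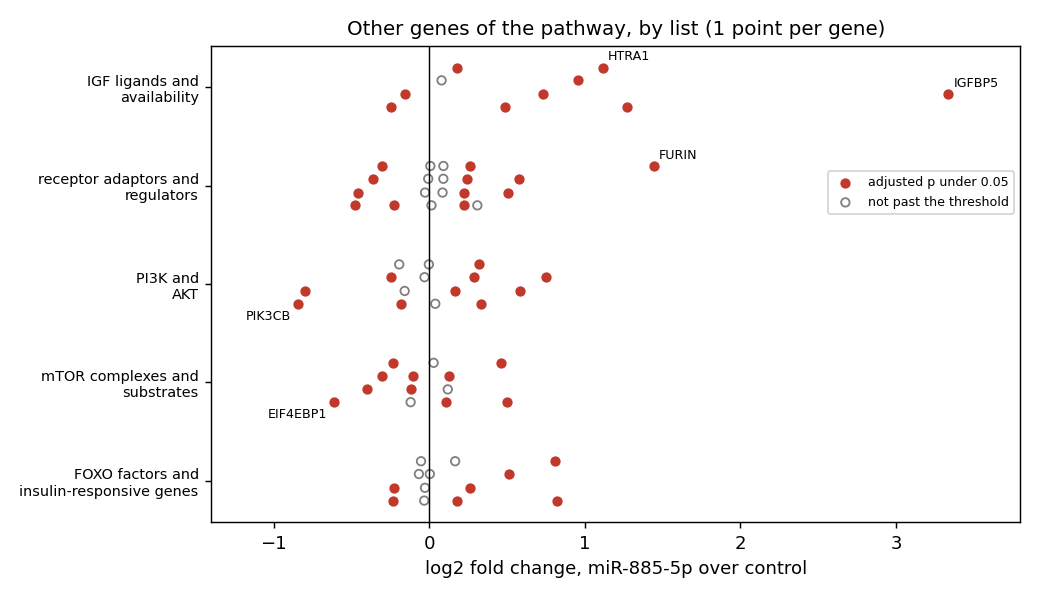
Log2 fold change of miR-885-5p over control (horizontal axis) of the 71 other pathway genes tested, 1 point per gene in 5 lists, filled where the adjusted p was under 0.05. IGFBP5 at 3.34 and FURIN at 1.44 lie farthest to the right, and PIK3CB at -0.84 farthest to the left.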

How the data were processed

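RNA-seq was made from 6 JHH-4 libraries, with total RNA and an NEBNext kit for Illumina per the labels' protocols. GRCh38 and the tools StringTie 2.2.1, HISAT2 2.0.4 and DESeq2 1.38.3 stand in the submitters' processing notes, without role or order. The sources used here do not state the counter, annotation release or strand setting. The deposited table holds, per the file headers, a whole-number count and an FPKM value per gene and library, and the authors' own p-value and log2 fold change. The 14034 rows include 1614 models with no gene name (2.88 to 3.63% of counts), which were kept. All 12420 Ensembl IDs were found in GENCODE 29.

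Groups and replicate numbers came from the titles. The test was edgeR's quasi-likelihood F test (version 4.0.16, R 4.3.3) on counts, with TMM scaling, group as the single factor and filterByExpr, which removed 0 genes. P-values were adjusted by Benjamini-Hochberg across the 14034 genes, and 0.05 was the threshold. Deposited FPKM served to compare genes. Ratios were tested with scipy 1.17.1. On simulated counts edgeR recovered 15 of 50 genes changed 1.2-fold, 37 of 50 changed 1.5-fold, 40 of 50 changed 2-fold and 50 of 50 changed 4-fold. It made 13 false calls among 13834 unchanged genes. A member that was not called may thus differ by a small fold. Few genes were changed in the simulation, so these shares need not hold for the data. Replicates differed by more than counting noise (chi-square per degree of freedom 7.95 to 40.5 within groups). Same-numbered libraries did not deviate together, with correlations of -0.184, -0.0575 and -0.151. Members and lists were chosen with earlier results of these data known. The text names every member and, per pathway list, up to 3 genes called higher and up to 3 called lower with the smallest adjusted p, plus the ligands where present. Some genes of the lists are counted but not reported here by name. Alternatives were DESeq2 1.42.0, limma 3.58.1 (voom), 3 scalings, filters, a replicate block, a test against 1.5-fold and leaving out each library; named genes alone and limma on FPKM (pseudocount 0.1) were chosen after seeing the data.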

Additional observations from a re-analysis of the deposited data

How the results depend on the processing

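In every fit except the test against a 1.5-fold change, 6 or 7 of the 9 members were called, and no member changed direction in any of the 17 alternatives. The range when 1 library was left out was 6 to 7 members, 39 to 48 pathway genes and 6286 to 7678 genes in all. Against a 1.5-fold change the calls were 1 member (0 higher, 1 lower), 5 pathway genes (4 higher, 1 lower) and 903 genes (493 higher, 410 lower). The replicate block left 6 members, 42 pathway genes and 6695 genes called; the numbers do not pair the libraries, and none of the 3 correlated best with its own number. With limma on the deposited FPKM 10 pathway genes were lower in place of 19, with 30 in place of 29 higher; the cause was not tested. Total-count scaling moved the median of all genes by 0.048 on the log2 scale. With the 8mer alone 1 member held a site in place of 4. The ratios kept their direction without each library and in FPKM. Depth limits IGF1R, whose log2 fold change ran from -0.51 to -0.17 over its alternatives. IGF1R was removed by the filter at 5 CPM.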
